A study of Mus musculus with 16 samples.

Results

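The genes described here are 40 genes of mitosis and DNA replication, measured by RNA-Seq in mouse spinal cord. They were chosen by gene symbol, as a list of cyclins, mitotic kinases, spindle and cytokinesis proteins and replication factors. All 40 symbols were found in the processed table, which holds 18167 genes in 16 mice, 1 library per mouse.

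The study examined a mouse model of amyotrophic lateral sclerosis (ALS) before symptoms and at end-stage. Both lines carry a human *PFN1* (profilin 1) transgene driven by the mouse prion promoter vector (*Prnp*), which is active in many cell types. The mutant mice, line 838Kiaei/J on the C57BL/6N background, carry Tg(Prnp-PFN1*G118V), and the control mice, line 850Kiaei/J on the same background, carry Tg(Prnp-PFN1) with the wild-type protein. MY and WY are 3 mutant and 3 control mice that were 50 days old. MO are 5 mutant mice at end-stage, reached when a mouse could not right itself within 20 seconds. The MO mice were 198 (MO1), 190 (MO2), 245 (MO3), 224 (MO4) and 175 (MO5) days old. WO are 5 control mice, of which WO1, WO2 and WO3 were 190 and WO4 and WO5 were 294 days old. The libraries were made in batches. MO4, MO5, WO4 and WO5 formed batch 2, and the other 12 mice formed batch 1, so every young mouse was in batch 1. Each genotype was represented by 1 transgenic line, and all mice were labelled male.

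Levels are given as log2(1 + FPKM), where FPKM is the number of fragments scaled to transcript length and library size, after the authors' batch correction. A log2 fold change is the second group of a comparison minus the first on this scale, which understates the change of genes near or below an FPKM of 1. The depth behind each gene is unknown. A gene was called at a false discovery rate (FDR) of at most 0.05 in limma, adjusted over all 18167 genes, and a stricter count also required a fold change of at least 1.5.

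Some libraries stood apart before any comparison was made. In MO5, *Xist* was at 3.21 and the Y-linked gene *Ddx3y* at 1.95, whereas in the other mice *Xist* was at or below 0.37 and *Ddx3y* at or above 4.06, so the library labelled MO5 went against its label of a male mouse. MO1 differed from the other MO mice in the cell cycle genes. It was the lowest of the 5 MO mice in 25 of the 40 genes, and the same held for 27.2% of all genes. The library of MO1 also had *Hba-a1*, a hemoglobin gene, at 3.60, against 5.42 to 5.99 in MO2 to MO5. Counts of the 40 genes that passed the FDR threshold with all mice in comparisons with MO are therefore also given without MO1 and without MO5. The batch correction matters for comparisons with age, because batch 2 held only old mice. Over all genes, the mean absolute difference between batch 2 and batch 1 was 0.0308 when all mice of batch 1 were used and 0.0633 when only its old mice were used. For the 40 genes these differences were 0.0392 and 0.0399. The part of the correction in the age comparisons was not tested, and differences within batch 1 are given for the genes of the 40 that were called in them.

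A dividing cell duplicates its DNA in S phase and separates the copies in mitosis. The MCM2-7 helicase unwinds DNA at replication forks, cyclins with their kinases drive each step, and spindle, checkpoint and cytokinesis proteins segregate the chromosomes and part the cells. Many of these genes are transcribed mainly in cycling cells. In the adult spinal cord neurons do not divide, oligodendrocyte precursors are the main dividing cells, and microglia and astrocytes can divide after injury. In RNA from whole tissue, a change in the number of dividing cells and a change in RNA per cell cannot be told apart.

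The levels of the 40 genes covered a wide range. By mean FPKM over the 16 mice, the highest were *Anln* (56.3), *Pcna* (51.4) and *Ccnd1* (17.4), and the lowest were *Cenpf* (0.139), *Bub1* (0.0966) and *Melk* (0.086). Between these lay *Racgap1* at 7.54, *Mcm7* at 6.59, *Mcm4* at 5.75 and *Ccna2* at 2.92. The mean FPKM was below 1 in 22 of the 40 genes (55%), against 25.3% of all genes. These 22 included *Mki67*, *Top2a*, *Cdk1*, *Ccnb1*, *Pbk* and *Aurkb*. A mean log2(1 + FPKM) of at least 1 was reached by 18 of the 40 genes.

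The order of the groups was shared by most of the list. The MO mean was the highest of the 4 group means in 33 of the 40 genes (34.8% of all genes), and the WO mean was the lowest in 32 (22.4% of all genes). Both held for 28 genes (12.1% of all genes). The young groups usually lay between.

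**Figure D1:**
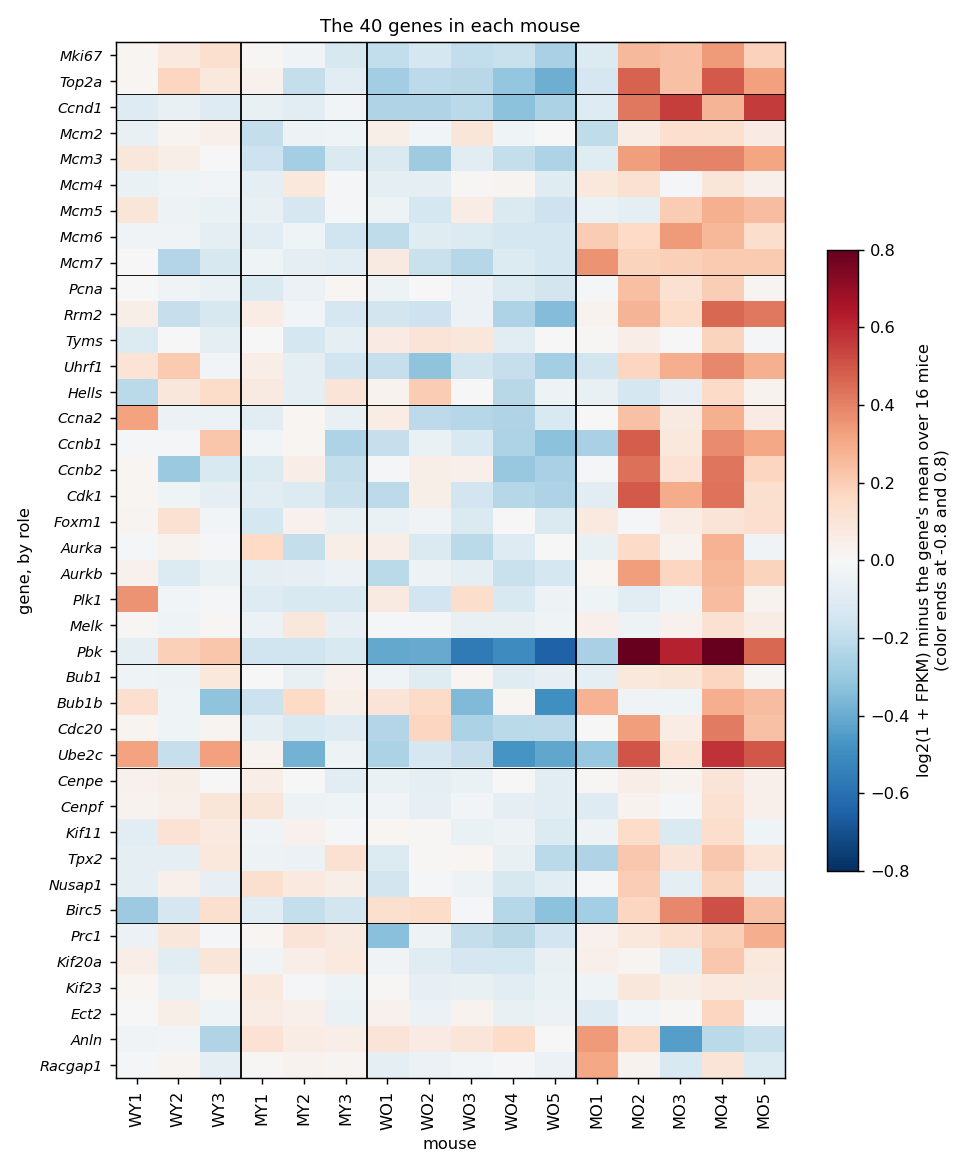
Each row is 1 of the 40 genes, ordered by role, and each column is 1 mouse; colors give log2(1 + FPKM) minus the mean of that gene over the 16 mice. MO2 to MO5 are red in most rows and the WO mice are blue in most rows, whereas MO1 is red for *Mcm6*, *Mcm7*, *Anln* and *Racgap1* and blue for *Top2a*, *Ccnb1* and *Ube2c*.

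WO vs. MO asked how old mutant mice at end-stage differed from old mice with the wild-type transgene. Of the 40 genes, 20 were higher in MO, against 15.0% of all genes, and 0 were lower, against 12.9%. In the same limma fit, 26 of the 40 had an unadjusted p below 0.05, each of them higher in MO, against 38.5% of all genes in either direction and 19.8% higher. The median log2 fold change was 0.19 over the 40 genes and 0.00035 over all genes, and the difference was positive in 38 of the 40 (50.2% of all genes), or in 33 after quantile normalization, where *Mcm2*, *Tyms*, *Plk1*, *Kif11* and *Ect2* turned negative without being called. Most changes were small on this scale, and 2 genes, *Ccnd1* and *Pbk*, passed the stricter count (4.08% of all genes). Every MO mouse was above every WO mouse in 10 genes (11.3% of all genes), and in 23 genes when MO1 was left out (13.8%).

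The call count moved with single mice. Without MO1, 25 of the 40 genes were higher in MO (15.5% of all genes), and without MO5 it was 15 (13.8%). Without WO5 the count was 13 (12.4%). The same 13 genes were called whichever of the 10 mice was left out. These were *Mki67*, *Top2a*, *Ccnd1*, *Mcm3*, *Mcm6*, *Mcm7*, *Rrm2*, *Uhrf1*, *Ccna2*, *Cdk1*, *Aurkb*, *Pbk* and *Prc1*. In batch 1 alone, with 3 mice per group and MO1 among them, only *Mcm6* was called, 1 of 40 genes against 14.4% of all genes in either direction. With all mice and batch as a term of the fit, 19 were called, against 27.1% of all genes in either direction. The 2 mice per group of batch 2 gave a difference but were not fitted alone. In batch 2 the WO mice (294 days) were older than the MO mice (224 and 175 days). Differences within batch 1 and batch 2 therefore differ in age match as well as in batch. Among all genes called in WO vs. MO, 53.8% were higher in MO, and 40.7% after quantile normalization between mice. In that fit 14 of the 40 genes were called, all higher in MO, against 12.9% of all genes higher in MO.

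**Figure D2:**
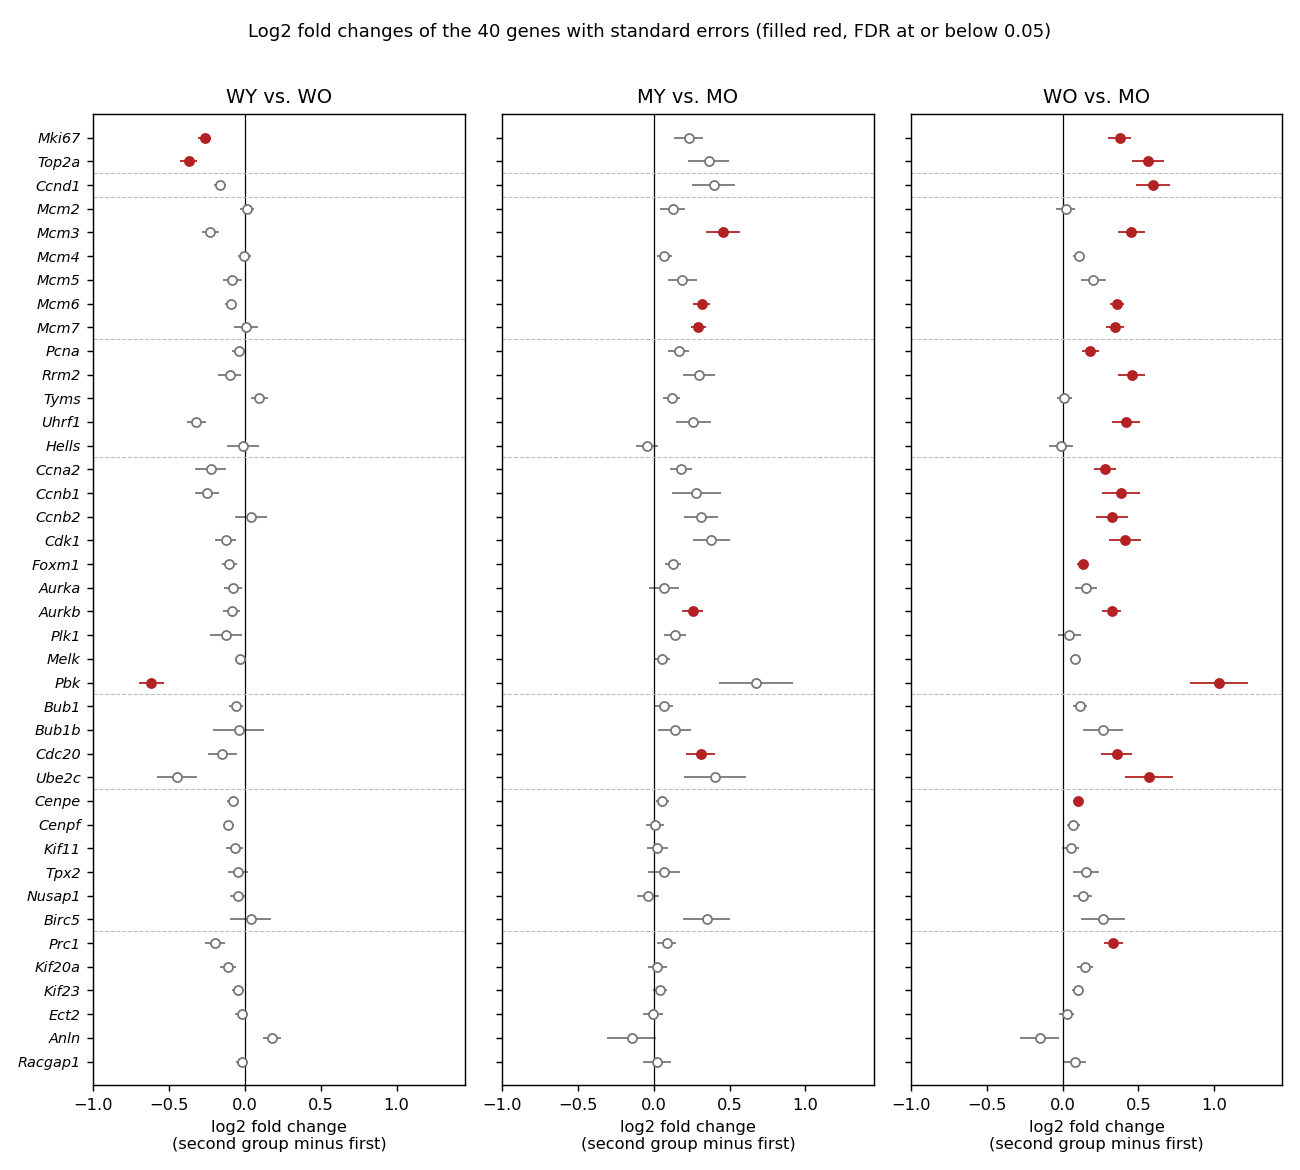
Points are log2 fold changes on the log2(1 + FPKM) scale (second group minus first), bars are standard errors, and filled red points have an FDR of at most 0.05; dashed lines part the roles. In WO vs. MO 20 genes are filled, all to the right of 0, in MY vs. MO 5 are filled to the right, and in WY vs. WO 3 are filled to the left.

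*Mki67* and *Top2a* encode the chromosome coat protein Ki-67 and topoisomerase IIα, both used as marks of proliferating cells. *Mki67* was at 0.16, 0.21, 0.16, 0.18 and 0.096 in WO1 to WO5 and at 0.25, 0.62, 0.59, 0.69 and 0.54 in MO1 to MO5. In the young mice it was at 0.37, 0.43 and 0.48 in WY1 to WY3 and at 0.37, 0.33 and 0.23 in MY1 to MY3. MO2 to MO5 were above all other mice, MO1 was within the range of the MY mice, and the WO mice were the lowest group. Between WO and MO, *Mki67* differed by 0.38 ± 0.074 (SE, FDR = 0.00354) on the log2 scale, with 0.31 within batch 1 and 0.48 within batch 2. *Top2a* was at 0.24, 0.31, 0.30, 0.22 and 0.13 in WO and at 0.39, 1.00, 0.76, 1.02 and 0.85 in MO, in the order of the mouse numbers. Its level was 0.54, 0.70 and 0.61 in WY and 0.56, 0.33 and 0.44 in MY. Again MO2 to MO5 were the 4 highest mice and every WO mouse was below every other mouse. The difference between WO and MO was 0.56 ± 0.11 (SE, FDR = 0.00284), with 0.43 within batch 1 and 0.76 within batch 2. Without MO1 the differences were 0.45 (FDR = 8.47e-05) for *Mki67* and 0.67 (FDR = 8.92e-05) for *Top2a*.

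*Ccnd1* encodes cyclin D1, which starts the passage from G1 to S phase and is also expressed by cells that are not in cycle. It was at 3.93, 3.94, 3.96, 3.84 and 3.92 in WO1 to WO5 and at 4.07, 4.60, 4.73, 4.44 and 4.74 in MO1 to MO5. The young mice lay in a narrow band between, at 4.07, 4.12 and 4.07 in WY and 4.11, 4.09 and 4.15 in MY. MO1 was at the level of the young mice, and MO2 to MO5 were above all other mice. *Ccnd1* was 0.60 ± 0.11 (SE, FDR = 0.00275) higher in MO than in WO, with 0.52 within batch 1 and 0.71 within batch 2.

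Of the 6 subunits of the MCM2-7 helicase, 3 rose in WO vs. MO, and all 6 had their highest group mean in MO, although the difference from WO turned negative for *Mcm2* after quantile normalization. *Mcm6* was at 1.75, 1.86, 1.84, 1.81 and 1.81 in WO1 to WO5 and at 2.15, 2.11, 2.29, 2.22 and 2.09 in MO1 to MO5. The young mice were at 1.93, 1.92 and 1.87 in WY and 1.86, 1.92 and 1.79 in MY, so that each MO mouse, MO1 included, was above each of the other 11 mice. *Mcm6* had the lowest FDR of the list in WO vs. MO, with a log2 fold change of 0.36 ± 0.044 (SE, FDR = 0.000196), and 0.37 within batch 1 and 0.34 within batch 2. It was called under every alternative that was tried. *Mcm7* was at 2.99, 2.74, 2.69, 2.80 and 2.77 in WO and at 3.27, 3.09, 3.10, 3.12 and 3.12 in MO. In WY it was at 2.92, 2.68 and 2.78, and in MY at 2.88, 2.84 and 2.82. MO1 was the highest of all mice for this subunit, in contrast to its low *Mki67*, and no other mouse reached the MO range. Its difference was 0.34 ± 0.059 (SE, FDR = 0.00159), and it was not called in batch 1 alone (FDR = 0.0579). *Mcm3* separated the mice in another way. It was at 1.36, 1.19, 1.39, 1.28 and 1.23 in WO1 to WO5 and at 1.38, 1.81, 1.87, 1.87 and 1.79 in MO1 to MO5, with 1.56, 1.52 and 1.47 in WY and 1.31, 1.20 and 1.36 in MY. MO1 lay inside the WO range and the other 4 MO mice were above all mice. The difference was 0.45 ± 0.091 (SE, FDR = 0.00392), and without MO1 it was 0.55 (FDR = 7.69e-05). The other subunits were not called, with 0.021 (FDR = 0.855) for *Mcm2*, 0.11 (FDR = 0.0625) for *Mcm4* and 0.20 (FDR = 0.0868) for *Mcm5*. *Mcm5* was called without MO1, at 0.25 (FDR = 0.0416).

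Among 5 further genes of DNA synthesis, 3 rose. *Rrm2*, a subunit of ribonucleotide reductase, which makes deoxynucleotides, was at 0.96, 0.94, 1.06, 0.86 and 0.76 in WO1 to WO5 and at 1.13, 1.38, 1.26, 1.56 and 1.53 in MO1 to MO5. The WY mice were at 1.15, 0.92 and 0.98 and the MY mice at 1.17, 1.08 and 0.97. WO and MO did not overlap, although MO1 lay among the young mice, and the difference was 0.46 ± 0.088 (SE, FDR = 0.00315), with 0.27 within batch 1 and 0.74 within batch 2. *Uhrf1*, which carries DNA methylation onto the new strand, was at 0.33, 0.19, 0.36, 0.33 and 0.23 in WO and 0.36, 0.68, 0.80, 0.89 and 0.79 in MO, with MO1 at the upper edge of the WO range. Its difference was 0.42 ± 0.090 (SE, FDR = 0.00582). *Pcna*, the sliding clamp of DNA polymerases, was abundant in every mouse, at 5.67, 5.71, 5.66, 5.60 and 5.56 in WO and 5.70, 5.95, 5.83, 5.90 and 5.73 in MO. The groups overlapped through MO1, and the difference was 0.18 ± 0.055 (SE, FDR = 0.0305). This call was lost without WO4, WO5, MO2, MO3 or MO4 (FDR up to 0.0778) and with a pseudocount of 0.1 (FDR = 0.0513). Thymidylate synthase (*Tyms*) and the chromatin remodeler *Hells* differed by 0.011 (FDR = 0.909) and -0.010 (FDR = 0.946), and the sign for *Tyms* turned after quantile normalization.

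The mitotic cyclins, kinases and *Foxm1* contributed 7 of their 10 genes. *Pbk*, which encodes a kinase active in mitosis, had the largest change of the list. It was at 0.34, 0.34, 0.18, 0.24 and 0.10 in WO1 to WO5 and at 0.49, 1.70, 1.36, 1.61 and 1.20 in MO1 to MO5. The WY mice were at 0.67, 0.94 and 0.97 and the MY mice at 0.59, 0.59 and 0.63. The WO mice were the lowest, MO1 stood between them and the young mice, and MO2 to MO5 were above every other mouse. *Pbk* was 1.03 ± 0.19 (SE, FDR = 0.00272) higher in MO than in WO, with 0.90 within batch 1 and 1.23 within batch 2, and without MO1 the difference was 1.23 (FDR = 6.78e-05). *Cdk1*, the kinase that drives entry into mitosis, was at 0.39, 0.64, 0.44, 0.37 and 0.35 in WO and at 0.51, 1.09, 0.89, 1.03 and 0.73 in MO. The young mice were at 0.61, 0.56 and 0.53 (WY) and 0.51, 0.49 and 0.42 (MY). MO1 was inside the range of WO, of which WO2 was the highest, and the other MO mice were above it. The difference was 0.41 ± 0.11 (SE, FDR = 0.0152), with 0.34 within batch 1 and 0.52 within batch 2. *Aurkb*, the kinase of the chromosomal passenger complex, was at 0.052, 0.23, 0.20, 0.094 and 0.13 in WO and 0.28, 0.60, 0.44, 0.54 and 0.45 in MO, without overlap. It differed by 0.32 ± 0.061 (SE, FDR = 0.00273), and the young mice were between 0.16 and 0.30.

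The cyclins that partner with *Cdk1* changed less evenly. *Ccna2* (cyclin A2) differed by 0.28 ± 0.073 (SE, FDR = 0.016) and *Ccnb2* (cyclin B2) by 0.33 ± 0.11 (SE, FDR = 0.0423). The *Ccna2* call was lost after quantile normalization (FDR = 0.0961) and with the replicate block (FDR = 0.0643). *Ccnb1* (cyclin B1) was at 0.23, 0.36, 0.29, 0.17 and 0.089 in WO and 0.16, 0.90, 0.50, 0.79 and 0.72 in MO, so MO1 was below 4 of the WO mice for a gene whose mean difference was 0.39 ± 0.12 (SE, FDR = 0.0422). Without MO5 the calls were lost for *Ccnb1* (FDR = 0.0863), *Ccnb2* (FDR = 0.0615) and *Foxm1* (FDR = 0.0619), the transcription factor of many mitotic genes. *Ccnb1* was also lost without WO1, WO3, WO4, WO5, MO2, MO3 or MO4 (FDR up to 0.0974), and *Ccnb2* without WO1, WO4, WO5, MO2, MO3 or MO4 (FDR up to 0.101). Quantile normalization lost *Ccnb1* (0.32, FDR = 0.0636) and *Ccnb2* (0.25, FDR = 0.105), as did the replicate block (FDR = 0.0529 and 0.0786). Batch as a term (FDR = 0.0541) and a pseudocount of 0.1 (FDR = 0.0579) lost *Ccnb1* as well. *Foxm1* itself differed by 0.13 ± 0.040 (SE, FDR = 0.0274) with all mice, and its call was also lost without WO3, WO5 or MO4 (FDR up to 0.0727) and after quantile normalization (FDR = 0.293). The replicate block lost it as well (FDR = 0.088). The mitotic kinases *Aurka*, *Plk1* and *Melk* were not called, at 0.15 (FDR = 0.153), 0.045 (FDR = 0.718) and 0.082 (FDR = 0.114), and *Plk1* turned negative after quantile normalization.

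In the group of checkpoint and anaphase-promoting complex genes, *Cdc20* and *Ube2c* rose and *Bub1* and *Bub1b* were not called. *Cdc20*, an activator of the anaphase-promoting complex, was at 0.50, 0.90, 0.48, 0.52 and 0.52 in WO and 0.73, 1.06, 0.79, 1.15 and 0.96 in MO. WO2 stood above the other WO mice and overlapped with MO1 and MO3. The difference was 0.36 ± 0.10 (SE, FDR = 0.0246), a call that was lost without WO1, WO3, WO4, WO5, MO2 or MO4 (FDR up to 0.0597). Quantile normalization lost this call too (0.27, FDR = 0.0655). *Ube2c*, the ubiquitin-conjugating enzyme of the same complex, was at 0.50, 0.62, 0.57, 0.28 and 0.34 in WO1 to WO5 and 0.45, 1.25, 0.86, 1.33 and 1.25 in MO1 to MO5. MO1 was inside the WO range and the other MO mice were above it. *Ube2c* differed by 0.57 ± 0.16 (SE, FDR = 0.0213), with 0.30 within batch 1 and 0.98 within batch 2, and the call was lost without WO4, WO5, MO2 or MO5 (FDR up to 0.053). The spindle checkpoint kinases *Bub1* and *Bub1b* differed by 0.12 (FDR = 0.105) and 0.27 (FDR = 0.168), and *Bub1* was called without MO1, at 0.15 (FDR = 0.0241).

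Of the 6 kinetochore and spindle genes, *Cenpe*, a kinesin of the kinetochore, was called, at 0.10 ± 0.032 (SE, FDR = 0.0383). That call was lost when any mouse but WO4 or MO1 was left out (FDR up to 0.0957), and after quantile normalization the difference was 0.049 (FDR = 0.327). With the replicate block it was also lost (FDR = 0.102). *Cenpf*, *Kif11*, *Tpx2*, *Nusap1* and *Birc5* (survivin) ranged from 0.054 for *Kif11* to 0.27 for *Birc5*, with *Kif11* negative after quantile normalization. Without MO1, *Tpx2* was called at 0.23 (FDR = 0.0117) and *Birc5* at 0.38 (FDR = 0.0299). Of the 6 midzone and cytokinesis genes, *Prc1*, which bundles microtubules of the spindle midzone, rose. It was at 0.81, 1.11, 0.95, 0.93 and 0.99 in WO and 1.18, 1.23, 1.27, 1.34 and 1.44 in MO, without overlap, and differed by 0.33 ± 0.063 (SE, FDR = 0.00279). The kinesins *Kif20a* and *Kif23* differed by 0.15 (FDR = 0.0557) and 0.099 (FDR = 0.0592), and *Kif23* was called without MO1, at 0.12 (FDR = 0.0208). *Ect2* differed by 0.028 (FDR = 0.748), with the opposite sign after quantile normalization, and *Racgap1* by 0.081 (FDR = 0.479). *Anln* (anillin), which also supports septin filaments in myelin, was the most abundant of the 40 genes and did not move with the others. It was at 5.93, 5.90, 5.92, 5.97 and 5.82 in WO and 6.17, 5.98, 5.39, 5.61 and 5.65 in MO, with MO1 the highest of all mice and MO3 the lowest. The difference was -0.15 ± 0.13 (SE, FDR = 0.432).

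**Figure D3:**
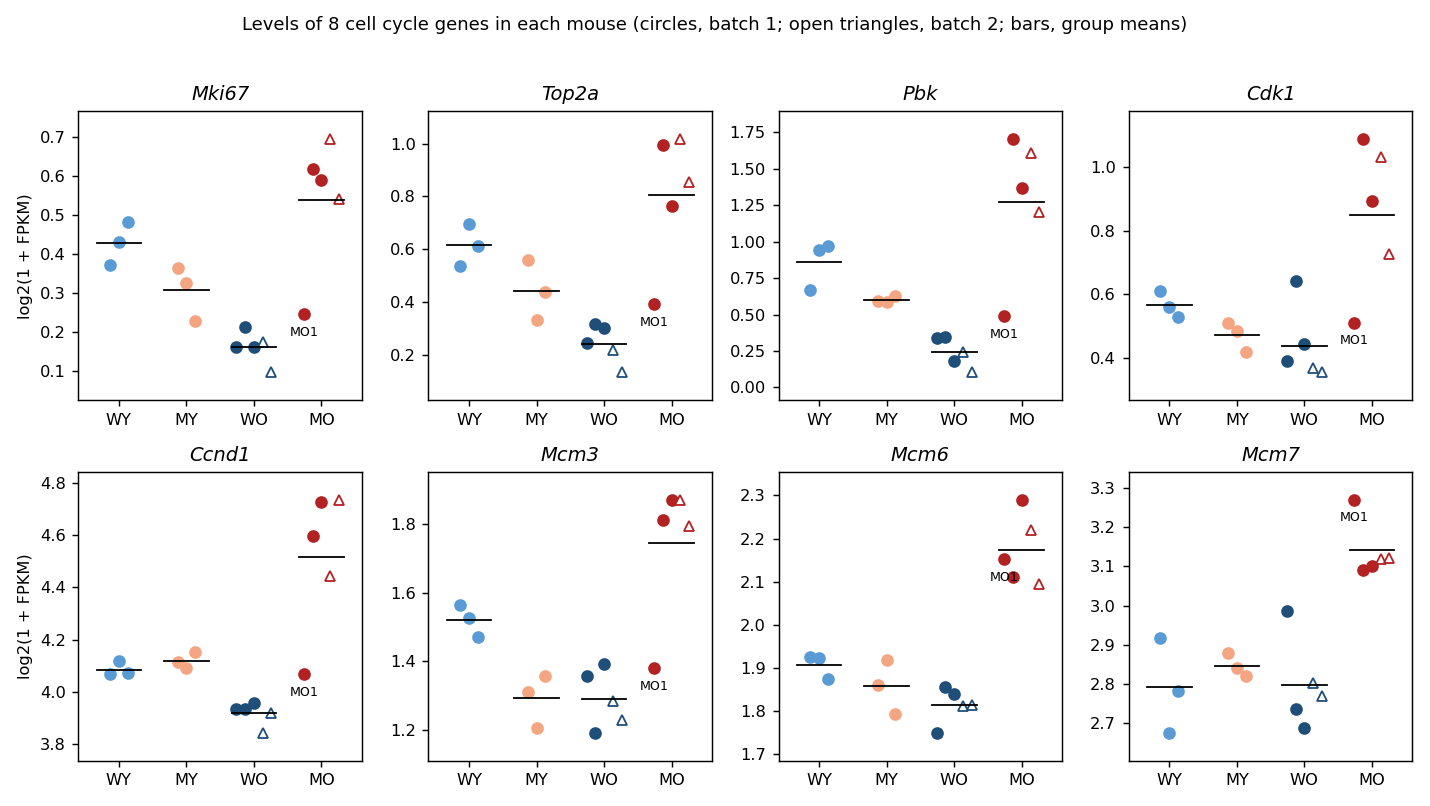
Each point is 1 mouse, the y axis is log2(1 + FPKM) with its own range in each panel, filled circles are batch 1, open triangles are batch 2 and bars are group means. MO1 lies with the WO or young mice for *Mki67*, *Top2a*, *Cdk1*, *Ccnd1* and *Mcm3*, between them for *Pbk*, and with the other MO mice or above them for *Mcm6* and *Mcm7*.

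MY vs. MO compared mutant mice before symptoms with those at end-stage, and shares the MO mice with WO vs. MO. Of the 40 genes, 5 were higher in MO, against 13.1% of all genes, so the share was near the background in this fit. None (0) was lower, against 12.5%, and 0 passed the stricter count (4.11% of all genes higher in MO). In limma 15 genes had an unadjusted p below 0.05, all higher in MO, against 36.7% of all genes in either direction and 18.7% higher. The 5 genes were *Mcm7* at 0.29 (FDR = 0.00375), *Mcm6* at 0.32 (FDR = 0.00462), *Mcm3* at 0.45 (FDR = 0.0194), *Aurkb* at 0.26 (FDR = 0.0261) and *Cdc20* at 0.31 (FDR = 0.0445). Every MO mouse was above every MY mouse in these 5 genes, *Cdk1* and *Plk1*, 7 of 40 against 15.7% of all genes. For *Cdk1* this rested on 0.509998 in MO1 against 0.509991 in MY1, which are equal once rounded. The median log2 fold change was 0.14, against 0.0047 over all genes, and 36 of 40 were positive, or 27 after quantile normalization. When all 4 groups were fitted together, 12 of the 40 genes were called, all higher in MO, against 13.6% of all genes higher.

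This comparison rested on MO1 more than WO vs. MO did. Without MO1, 17 of the 40 genes were higher in MO (15.0% of all genes), among them *Mki67* at 0.30 (FDR = 0.00528), *Top2a* at 0.46 (FDR = 0.00518), *Ccnd1* at 0.51 (FDR = 0.00275) and *Pbk* at 0.87 (FDR = 0.00177). With MO1 these 4 were at 0.23 (FDR = 0.116), 0.36 (FDR = 0.0909), 0.39 (FDR = 0.0779) and 0.67 (FDR = 0.0782). Without MO5, 4 genes were called (12.0% of all genes), and without any one of MY1, MY2 or MY3, 2 were (1454, 1660 and 1511 of all 18167 genes higher in MO, against 2377 with all mice). *Mcm6* and *Mcm7* were called whichever mouse was left out, and they were also the 2 genes called in batch 1 alone (24.9% of all genes in either direction). *Mcm3* and *Aurkb* were lost without any of the MY mice, and *Cdc20* without any of the MY mice or without MO2, MO4 or MO5. *Mcm3*, *Aurkb* and *Cdc20* were also lost with batch as a term (FDR = 0.0546, 0.0679 and 0.116), after quantile normalization (FDR = 0.0627, 0.0686 and 0.166) and with the replicate block (FDR = 0.0786, 0.0944 and 0.139). Within batch 1 the difference was 0.40 for *Mcm3*, 0.33 for *Mcm6*, 0.31 for *Mcm7*, 0.23 for *Aurkb* and 0.23 for *Cdc20*. Batch as a term and the replicate block gave these same differences, because every young mouse was in batch 1. These fits and that of batch 1 alone are therefore not separate checks. The 9 genes that turned negative after quantile normalization were not called. Over all genes called, 51.2% were higher in MO, and 39.4% after quantile normalization.

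WY vs. WO gave the change with age in mice with the wild-type transgene. Of the 40 genes, 3 fell, against 0.892% of all genes, and 0 rose, against 0.231%. The 3 were *Pbk* at -0.62 ± 0.085 (SE, FDR = 0.0195), *Top2a* at -0.37 ± 0.056 (SE, FDR = 0.028) and *Mki67* at -0.27 ± 0.043 (SE, FDR = 0.0345). *Pbk* also passed the stricter count (1 of 40, against 0.204% of all genes). In limma 12 of the 40 had an unadjusted p below 0.05, of which 11 were lower in WO, against 13.5% of all genes in either direction and 7.99% lower. The median was -0.083, against 0.0018 over all genes. The WY mice were all above the WO mice in 10 genes (5.86% of all genes). These were *Mki67*, *Top2a*, *Ccnd1*, *Mcm3*, *Mcm6*, *Uhrf1*, *Ccnb1*, *Pbk*, *Cenpe* and *Cenpf*. The decrease was of similar size within batch 1, at -0.57 for *Pbk*, -0.33 for *Top2a* and -0.25 for *Mki67*, although 0 of the 40 genes were called there (1.03% of all genes in either direction). Leaving out 1 mouse left only *Pbk* called at best, and without WY2, WY3 or WO3 that call was lost as well (FDR up to 0.106). Calls over all genes fell too, from 204 with all mice to between 9 (without WY3) and 182 (without WO4). *Mki67* had an FDR of 0.06 to 0.15 and *Top2a* of 0.0503 to 0.125 when 1 mouse was left out. With the replicate block all 3 calls were lost, at an FDR of 0.131 (*Pbk*), 0.107 (*Top2a*) and 0.175 (*Mki67*), and 0.374% of all genes were called. In 1 fit of 4 groups 0 of the 40 were called (1.05% of all genes), and batch as a term lost *Mki67* (FDR = 0.06). Batch as a term and the replicate block both gave the difference within batch 1, which held every young mouse, so they are not separate checks from it.

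WY vs. MY compared the genotypes at 50 days. None (0) of the 40 genes was called higher in MY (0.00550% of all genes) or lower in MY (0.00%). In the limma fit 4 of the 40 genes had an unadjusted p below 0.05, against 7.16% of all genes. These were *Mcm3* at -0.23 (FDR = 0.555), *Pbk* at -0.26 (FDR = 0.655), *Cdc20* at -0.10 (FDR = 0.684) and *Anln* at 0.17 (FDR = 0.692). The median over the 40 genes was -0.021, against -0.0025 over all genes.

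The age difference in mutant mice minus that in control mice was tested on all 16 mice. It was positive in 15 of the 40 genes (10.5% of all genes) and negative in 0 (7.19% of all genes). By unadjusted p below 0.05 it was positive in 20 of the 40 (16.7% of all genes) and negative in 0 (14.4% of all genes). *Pbk* had the largest value, 1.29 ± 0.28 (SE, FDR = 0.00529), followed by *Ube2c* at 0.85 ± 0.26 (SE, FDR = 0.0353), *Top2a* at 0.73 ± 0.16 (SE, FDR = 0.00519) and *Mcm3* at 0.68 ± 0.13 (SE, FDR = 0.00259). *Mcm6* had the lowest FDR, at 0.41 ± 0.066 (SE, FDR = 0.00072), and *Mki67* was at 0.50 ± 0.11 (SE, FDR = 0.00574). After quantile normalization 10 of the 40 were called, against 19.8% of all genes in either direction, and of all genes called 46.8% were positive, against 59.3% before it. For *Mki67*, *Top2a* and *Pbk* the control mice fell with age and the mutant mice had a positive difference, which was not called with MO1 and was called without it. Without MO1 the test was positive in 17 genes (12.0% of all genes) and negative for *Anln*, at -0.43 (FDR = 0.0475). Without MO5 it was positive in 9 (10.2%), without WO4 or MO4 in 9 (9.33% and 10.5% of all genes), and without WY1, MY1, MY2, MY3 or WO5 in 8 (1453, 1467, 1564, 1479 and 1632 of all 18167 genes, against 1903 with all mice). *Mki67*, *Top2a*, *Mcm3*, *Mcm6*, *Uhrf1*, *Aurkb* and *Pbk* were called whichever mouse was left out. The *Ube2c* call was lost without WY1, WY3, MY2, MY3, WO4, WO5, MO2, MO4 or MO5 (FDR up to 0.0973). In batch 1 alone 5 genes were called, *Mki67*, *Top2a*, *Mcm3*, *Mcm6* and *Pbk* (12.4% of all genes in either direction).

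Summed FPKM described each mouse as a whole. Over the 40 genes the sum was 172, 171, 169, 166 and 158 in WO1 to WO5 and 191, 208, 180, 196 and 186 in MO1 to MO5. It was 173, 171 and 162 in WY and 173, 172 and 175 in MY. *Anln*, *Pcna* and *Ccnd1* made up most of it, and without these 3 genes the sum was 47.3, 46.8, 45.7, 43.5 and 41.9 in WO and 53.4, 61.9, 57.7, 68.2 and 59.3 in MO. Every MO mouse was above every other mouse on this last sum, with MO1 the closest to the rest. The mean log2(1 + FPKM) over the 40 genes was 1.25, 1.26, 1.24, 1.18 and 1.15 in WO and 1.30, 1.51, 1.43, 1.59 and 1.47 in MO, and MO1 was then at the level of the young mice (1.34, 1.31 and 1.33 in WY). Taken by role, MO1 was the lowest MO mouse in both proliferation-associated chromosome proteins, in *Ccnd1*, in 7 of 10 mitotic cyclin and kinase genes and in 3 of 4 checkpoint and anaphase genes. It was the lowest in 4 of 6 kinetochore and spindle genes, 3 of 6 midzone and cytokinesis genes, 3 of 5 other DNA synthesis genes and 2 of 6 MCM subunits, against 27.2% of all genes. The summed FPKM of the MCM2-7 subunits was 23.2, 23.6, 24.4, 24.9 and 23.8 in MO1 to MO5, against 20.1, 18.6, 19.6, 19.4 and 18.6 in WO.

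A further list held 130 cell cycle genes in the table. In WO vs. MO 40 of the 130 (30.8%) were higher in MO, against 15.0% of all genes, and 4 (3.08%) were lower, against 12.9%. In MY vs. MO 28 (21.5%) were higher, against 13.1% of all genes, and 5 (3.85%) were lower, against 12.5%. Without MO1 the numbers of higher genes were 47 (36.2%) in WO vs. MO and 37 (28.5%) in MY vs. MO, against 15.5% and 15.0% of all genes. Without MO5 they were 37 (28.5%) and 24 (18.5%), against 13.8% and 12.0%. In batch 1 alone 19 of the 130 (14.6%) were called in WO vs. MO in either direction, against 14.4% of all genes, and 25 (19.2%) in MY vs. MO, against 24.9%, so the shares were near or below those of all genes there. In WY vs. WO 0 were higher and 3 (2.31%) lower, against 0.892% of all genes lower, and 26 of the 130 had an unadjusted p below 0.05 in limma, against 13.5% of all genes. In WY vs. MY 0 were called, and 13 of the 130 had an unadjusted p below 0.05 in limma, against 7.16% of all genes. Of the 130 genes, those higher in WO vs. MO were 20 of 57 mitosis genes and 10 of 40 replication genes. They also included 7 of 26 regulators of G1 and S phase and 3 of 7 inhibitors of cyclin-dependent kinases. Among those with the largest differences in WO vs. MO, *Myc*, a transcription factor that promotes growth and cell cycle entry, was at 0.79 (FDR = 7.02e-05). *Ckap2* and *Spc25*, of the spindle and the kinetochore, were at 0.73 (FDR = 8.12e-05) and 0.67 (FDR = 0.00151), and *Ccnd2* (cyclin D2) at 0.65 (FDR = 0.000317). The 4 that were lower in MO were *Cit* (citron kinase, also expressed by neurons) at -0.41 (FDR = 0.0141), *Ccne1* (cyclin E1) at -0.31 (FDR = 0.00266), *Wee1*, a kinase that restrains *Cdk1*, at -0.29 (FDR = 0.000313), and the repressor *E2f6* at -0.21 (FDR = 0.0162). In MY vs. MO *Spc25* was at 0.69 (FDR = 0.00423), *Ckap2* at 0.54 (FDR = 0.00409), *Myc* at 0.70 (FDR = 0.0019) and *Cks1b*, a partner of cyclin-dependent kinases, at 0.52 (FDR = 0.0105). *Depdc1b*, *Cit*, *Wee1* and *Ccne1* were lower in MO than in MY, at -0.54 (FDR = 0.0404), -0.46 (FDR = 0.0241), -0.25 (FDR = 0.00539) and -0.22 (FDR = 0.0432). The calls for *Depdc1b* and *Ccne1* were lost without MO1 or without any of the MY mice, among others (FDR up to 0.162 and 0.15), and that for *Cit* without any of the MY mice, MO2 or MO3 (FDR up to 0.0901). In WY vs. WO *Cdca3* and *Fam64a*, both mitotic, fell, at -0.31 (FDR = 0.0492) and -0.29 (FDR = 0.0492), and both calls were lost whichever mouse was left out.

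Of the 7 inhibitors of cyclin-dependent kinases, which hold cells out of division, 3 rose in both WO vs. MO and MY vs. MO. *Cdkn2a* (p16 and p19ARF) was at 0.23, 0.27, 0.36, 0.23 and 0.084 in WO1 to WO5 and 0.77, 0.98, 1.10, 0.64 and 0.86 in MO1 to MO5. *Cdkn2c* (p18) was at 1.11, 0.81, 0.99, 0.80 and 0.84 in WO and 1.75, 1.73, 1.57, 1.73 and 1.74 in MO. For both genes the groups did not overlap, and MO1 was with the other MO mice. In WO vs. MO the differences were 0.63 ± 0.083 (SE, FDR = 0.000317) for *Cdkn2a*, 0.80 ± 0.066 (SE, FDR = 2.37e-05) for *Cdkn2c* and 0.26 ± 0.066 (SE, FDR = 0.0145) for *Cdkn2b* (p15). They were 0.76 (FDR = 0.00103), 0.52 (FDR = 0.000784) and 0.40 (FDR = 0.0096) in MY vs. MO. *Cdkn1a* (p21) was at 5.37, 5.15, 4.56, 4.69 and 4.47 in WO and 6.37, 5.38, 4.82, 4.41 and 5.56 in MO. MO1, the MO mouse with the lowest *Mki67*, had the highest *Cdkn1a* of the 16 mice, and the groups overlapped, with a difference of 0.46 ± 0.33 (SE, FDR = 0.349). *Cdkn1c* (p57) was lower in old mice of both genotypes, at -0.80 (FDR = 0.045) in WY vs. WO and -1.04 (FDR = 0.00554) in MY vs. MO, and at -0.51 (FDR = 0.0523) in WO vs. MO. The first of these was lost without WY1, WY2, WY3, WO1, WO2, WO3 or WO5 (FDR up to 0.175). *Cdkn1b* and *Cdkn2d* were not called in any comparison, with 0.0044 (FDR = 0.964) and 0.032 (FDR = 0.808) in WO vs. MO.

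Markers of cell types that can divide in the cord moved in different ways. For this and the later marker counts, 15.0% of all genes were higher and 12.9% lower in WO vs. MO. The shares were 13.1% and 12.5% in MY vs. MO and 0.231% and 0.892% in WY vs. WO. All 10 microglia markers were in the table, and 9 rose in both WO vs. MO and MY vs. MO. In WY vs. WO 1 of them, *Fcrls*, fell, at -0.91 (FDR = 0.0461). Their summed FPKM was 274, 276, 297, 204 and 195 in WO1 to WO5 and 935, 1195, 1352, 812 and 899 in MO1 to MO5. It was 260, 234 and 255 in WY and 237, 258 and 247 in MY. Within batch 1, MO1 was the lowest MO mouse on this sum. It was above MO4 and MO5 of batch 2, where the WO mice were also lower than in batch 1. In *Mki67*, *Top2a* and *Pbk* MO1 was the lowest MO mouse. *C1qb* was the most abundant microglia marker, at 2.59 (FDR = 2.16e-05) in WO vs. MO, and no microglia marker was at or below 0 in any mouse. Astrocyte markers, with *Gfap* the most abundant, at 1.60 (FDR = 1.46e-05) in WO vs. MO, rose in 7 of 10 genes in WO vs. MO and in 5 of 10 in MY vs. MO, and 2 of 10, *Gfap* and *Aqp4*, fell in WY vs. WO. Their summed FPKM was 2160, 2064, 2182, 2210 and 1988 in WO and 3780, 4570, 4076, 3525 and 3714 in MO. In WY it was 2582, 2488 and 2403, and in MY 2334, 2385 and 2329. The part of microglia and astrocytes in the cell cycle genes was not tested.

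Few markers of oligodendrocyte precursors, the main dividing cells of the healthy cord, were called. In WO vs. MO 1 of 10 was higher and 1 lower, below the 15.0% and 12.9% of all genes. Of their 10 markers, *Vcan* rose at 0.39 (FDR = 0.00396) and *Olig1*, the most abundant, fell at -0.33 (FDR = 0.0499) in WO vs. MO, a call that was lost without MO1 (FDR = 0.0871). In MY vs. MO *Olig1* fell (1 of 10, against 12.5% of all genes lower). In WY vs. WO *C1ql1* fell, at -0.57 (FDR = 0.0408), 1 of 10 against 0.892% of all genes lower. Their summed FPKM was 289, 277 and 290 in WY and 265, 272 and 272 in MY. It was 239, 254, 238, 234 and 243 in WO1 to WO5 and 194, 212, 221, 255 and 252 in MO1 to MO5. Every young mouse was above every old mouse on this sum, of which *Olig1* (mean of 132 FPKM) was a large part. The mean log2(1 + FPKM) of the list was 3.72 in WO and 3.82 in MO, and the median difference of its genes was 0.13 in WO vs. MO, opposite to the sums. The defining markers *Pdgfra* and *Cspg4* differed by 0.17 (FDR = 0.0531) and 0.17 (FDR = 0.148) in WO vs. MO and by -0.18 (FDR = 0.197) and -0.010 (FDR = 0.965) in WY vs. WO. Markers of newly formed oligodendrocytes fell with age in 4 of 10 genes in WY vs. WO, led by *Gpr17* at -1.07 (FDR = 0.0129), and in 5 of 10 in MY vs. MO. In WO vs. MO 3 were higher and 1, *Bcas1*, the most abundant, was lower. Their summed FPKM was 381, 340 and 327 in WY and 339, 330 and 320 in MY, against 287, 268, 271, 297 and 297 in WO and 201, 225, 246, 293 and 249 in MO. No marker of these lists was at or below 0. The part of these cells in the decrease of *Mki67*, *Top2a* and *Pbk* in WY vs. WO was not tested, and other markers fell in the same comparison, among them 6 of 10 of mature oligodendrocytes.

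T and B cell markers were low. T cell markers, of which 7 of 9 were in the table, summed to 0.457, 0.608, 0.442, 0.367 and 0.501 FPKM in WO1 to WO5 and 1.03, 1.1, 0.838, 0.958 and 1.29 in MO1 to MO5. In the young mice the sum was 0.766, 0.694 and 0.523 (WY) and 0.579, 0.629 and 0.695 (MY). *Cd3g*, *Cd8a* and *Lck*, the most abundant, rose in WO vs. MO, and *Cd3g*, *Cd8a* and *Cd2* were at or below 0 in some mice. Only 2 of 5 B cell markers were in the table, and *Cd79b*, the more abundant, rose in WO vs. MO and MY vs. MO. The B cell sum was at most 0.883 FPKM in any mouse. Markers of neutrophils and monocytes (6 of 8 in the table, *S100a8* the most abundant) and of erythroid cells (6 of 7, *Hba-a1*) had 0 calls in these comparisons. The sum of erythroid markers in MO1 was 11.7 FPKM, against 43.5 to 96.9 in the other 15 mice, and that of neutrophil and monocyte markers was highest in WO2, at 33.5.

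The promoters of the list shared sequence letters that their selection did not use. RefSeq promoters (GRCm38.p6, 250 bases before to 50 after the start) were found by symbol for 32 of the 40 genes, as 36 promoters. *Aurkb*, *Ccna2*, *Ccnd1*, *Foxm1*, *Kif20a*, *Mcm4*, *Pbk* and *Tpx2* were not among them. As background, TTTGAA is a form of the cell cycle homology region bound by MuvB complexes, CCAAT is the box bound by NF-Y, and GCGGGAA and GCGCGAA are forms of the site of E2F proteins. Each was searched on both strands, and matches could overlap. TTTGAA was in 19 of the 36 promoters (52.8%), against 17.9% of all 32851 promoters of the same length. CCAAT was in 30 (83.3%, against 37.4%), GCGGGAA in 5 (13.9%, against 4.6%) and GCGCGAA in 6 (16.7%, against 1.59%). TTTGAA and CCAAT occurred together in 18 of the 36 (50%), against 6.95% of all promoters. A match describes the letters only, and binding was not measured.

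No promoter of *Mcm3*, *Mcm5*, *Mcm6* or *Mcm7* held TTTGAA, and each of these genes had a promoter with GCGGGAA or GCGCGAA, whereas *Mcm2* held TTTGAA and neither of the E2F letters. *Mki67*, *Top2a*, *Ccnb2*, *Cdc20*, *Ube2c* and *Prc1* held the cell cycle homology letters and the NF-Y box and neither of the E2F letters, and *Cdk1* held both and GCGCGAA. *Aurka*, *Plk1*, *Bub1b*, *Cenpf*, *Kif11*, *Kif23*, *Ect2* and *Racgap1*, none of them called in WO vs. MO with all mice, held the first pair as well. Other mitotic genes lacked these letters, since *Ccnb1*, *Melk*, *Bub1*, *Cenpe*, *Nusap1* and *Birc5* had no TTTGAA, and *Melk*, *Nusap1* and *Birc5* also had no CCAAT. The promoters of 4 of these genes are shown as examples, chosen after their values were seen. They lie on the minus strand at chr7:135716330-135716629 (*Mki67*), chr10:69352863-69353162 (*Cdk1*), chr4:118437294-118437593 (*Cdc20*) and chr1:128359656-128359955 (*Mcm6*), and are written 5′ to 3′ along the gene. Capitals mark the letters searched, on either strand, and a match on the other strand is shown as its reverse complement, so that the NF-Y box there reads ATTGG.
Mki67: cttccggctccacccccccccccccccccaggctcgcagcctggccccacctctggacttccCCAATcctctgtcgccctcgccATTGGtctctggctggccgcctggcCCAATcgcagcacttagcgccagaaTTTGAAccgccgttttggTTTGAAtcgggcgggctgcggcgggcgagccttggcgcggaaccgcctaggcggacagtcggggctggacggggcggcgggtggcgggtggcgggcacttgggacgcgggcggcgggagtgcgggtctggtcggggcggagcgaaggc
Cdk1: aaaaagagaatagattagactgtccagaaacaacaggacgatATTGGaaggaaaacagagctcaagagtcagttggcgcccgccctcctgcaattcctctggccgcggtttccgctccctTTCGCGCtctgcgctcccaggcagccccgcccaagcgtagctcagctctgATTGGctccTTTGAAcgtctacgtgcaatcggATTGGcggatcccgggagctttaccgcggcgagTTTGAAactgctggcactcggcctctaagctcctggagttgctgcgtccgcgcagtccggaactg
Cdc20: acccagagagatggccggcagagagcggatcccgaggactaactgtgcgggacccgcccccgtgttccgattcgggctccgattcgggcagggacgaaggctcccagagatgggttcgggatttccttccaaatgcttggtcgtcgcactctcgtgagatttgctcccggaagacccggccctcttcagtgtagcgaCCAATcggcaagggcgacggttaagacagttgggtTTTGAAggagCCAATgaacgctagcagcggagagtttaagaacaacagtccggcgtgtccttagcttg
Mcm6: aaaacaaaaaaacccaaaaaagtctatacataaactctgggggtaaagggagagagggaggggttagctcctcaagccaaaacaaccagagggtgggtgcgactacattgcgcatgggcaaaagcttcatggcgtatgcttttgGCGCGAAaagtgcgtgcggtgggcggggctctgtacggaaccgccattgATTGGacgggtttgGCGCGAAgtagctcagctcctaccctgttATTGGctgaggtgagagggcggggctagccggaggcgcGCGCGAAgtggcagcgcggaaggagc

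The genes lie apart in the genome. In GENCODE M21 on GRCm38, the build to which the authors aligned (mm10), *Mki67* is at chr7:135689784-135716361, *Top2a* at chr11:98992943-99024189, *Pbk* at chr14:65805837-65817822, *Cdk1* at chr10:69335146-69352938, *Ccnd1* at chr7:144929931-144939925, *Mcm3* at chr1:20802968-20820312, *Mcm6* at chr1:128331590-128359664 and *Mcm7* at chr5:138164583-138172422. All 40 are protein-coding. Some exons overlap those of other genes, and although the library kit was stranded, whether the counting used strand is not given in the sources used here, so part of their signal is uncertain. The exons of *Mcm7* share bases with *Ap4m1* and *Cops6* on the other strand, and those of *Ube2c* share 592 bases with *Tnnc2*. *Prc1* shares 911 bases with *Rccd1*, *Ccna2* 510 with *Exosc9*, *Kif20a* 1271 with *Cdc23*, *Nusap1* 172 with *Oip5*, *Plk1* 156 with *Gm44985*, *Cdc20* 53 with *Elovl1* and *Ccnd1* 1100 with *LTO1*, all on the other strand. On the same strand, *Foxm1* shares 144 bases with *Tex52* and 97 with *Gm44596*, *Top2a* 122 with the small nucleolar RNA *Gm23451*, and *Mcm7* 84 with *Mir25* and 88 with *Mir93*. *Pcna*, *Tyms*, *Ccnb1* and *Ccnb2* have annotated processed pseudogenes whose reads could be shared with them.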

How the data were processed

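Spinal cord RNA of 16 mice was sequenced, 1 library per mouse. The authors used Trimmomatic for read trimming, TopHat for alignment (mm10) and Cufflinks for FPKM (versions not given in the sources used here). Genes at 0 in 8 or more mice had been dropped, and the authors deposited log2(1 + FPKM) values adjusted for batch with ComBat, whose covariates are not stated. No deposited column was left unused.

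Each comparison was fitted on its 2 groups with limma 3.58.1 in R 4.3.3 (lmFit and eBayes, two-sided, no covariate), with Benjamini-Hochberg adjustment over 18167 genes. The difference of age differences was fitted on all 16 mice. The fits were tested on simulated data. Summed FPKM used 2^value - 1, with negative values set to 0. The 40 genes, the role lists, the 130 other cell cycle genes and the marker lists were chosen with earlier results of these data known. Of the other cell cycle genes, up to 6 with the largest called difference per direction and comparison were named, and the kinase inhibitors. Marker genes beside the most abundant ones were named after their values were seen. 1 marker list is not reported here. Alternatives were batch 1 only, batch as a term, 1 fit of 4 groups, quantile normalization, a pseudocount of 0.1, a mean of at least 1, an eBayes trend, a replicate block and each mouse left out.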

Additional observations from a re-analysis of the deposited data

Results flagged for a closer look

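Within the groups of 5 mice, 12 values among 162 group tests (81 named genes in WO and MO) lay far from the other mice of their group, by a gap of more than 0.71 of the group's range, and chance alone flags about 1 in 20 groups. MO1 had the lowest MO level of *Mcm2* (1.64), *Mcm3* (1.38), *Tpx2* (0.69) and *Spc25* (1.00) and the highest of *Mcm7* (3.27). MO5 had the highest *Xist* (3.21) and the lowest *Ddx3y* (1.95). *Hba-a1* was lowest in MO1 (3.60) and *Mbp* in WO4 (5.36). *Cdc20* was highest in WO2 (0.90), *Depdc1b* highest in MO4 (1.19) and *Cdkn2c* lowest in MO3 (1.57), where it was still above every WO mouse.

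The age difference of mutant mice minus that of control mice passed the limma test in 34 of 81 named genes, many of which were named because they were called in a comparison. Over all genes it was positive in 10.5% and negative in 7.19%. For replication genes it was 0.68 (*Mcm3*), 0.41 (*Mcm6*), 0.29 (*Mcm7*) and 0.58 (*Uhrf1*), and for the proliferation marks 0.50 (*Mki67*) and 0.73 (*Top2a*). For mitotic genes it was 0.40 (*Ccna2*), 0.51 (*Cdk1*), 0.23 (*Foxm1*), 0.34 (*Aurkb*), 1.29 (*Pbk*), 0.46 (*Cdc20*), 0.85 (*Ube2c*) and 0.28 (*Prc1*). Cyclin D1 was at 0.56 (*Ccnd1*). Among the other cell cycle genes it was 0.64 (*Cdca3*), 0.60 (*Fam64a*), 0.98 (*Spc25*), 0.78 (*Ckap2*), 0.72 (*Cks1b*), 0.78 (*Myc*) and 0.52 (*Ccnd2*). The kinase inhibitors were at 0.75 (*Cdkn2a*), 0.57 (*Cdkn2b*) and 0.79 (*Cdkn2c*). *Wee1* and *Ccne1* had negative values, -0.33 and -0.36. Among marker genes it was 3.11 (*Fcrls*), 2.55 (*C1qb*), 1.80 (*Gfap*), 1.09 (*Aqp4*), 0.44 (*Vcan*), 0.36 (*Lck*) and 0.31 (*Cd79b*). Of the 15 calls among the genes of the main list, 7 held whichever mouse was left out and 8 were lost at least once. The limma calls of *Mcm7* (FDR = 0.0485), *Ccna2* (FDR = 0.0471), *Cdc20* (FDR = 0.0379) and *Prc1* (FDR = 0.0495) were each lost without WY1, any MY mouse or MO2, among others.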

How the results depend on the processing

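None of the calls of the 40 genes, or of the other cell cycle genes named by the rule, changed direction under the alternatives run for them. Single marker genes, *Cdkn2b* and the other cell cycle genes in the difference of age differences were followed under only some of them, such as leaving out MO1. In WO vs. MO 20 of the 40 genes were called. The number was 1 with batch 1 only, against 14.4% of all genes in either direction. It was 13 to 25 when 1 mouse was left out. With a mean of at least 1, where 18 of the 40 genes were fitted, it was 8 (4312 of 13530 genes in either direction). These 8 were all of the 20 genes that this filter kept. For MY vs. MO (5 genes) the number was 2 with batch 1 only (24.9% of all genes in either direction) and 2 with batch as a term (24.6%). It was 12 in 1 fit of 4 groups (24.6%, with 13.6% higher) and 3 after quantile normalization (28.9%, with 11.4% higher). With 1 mouse left out it was 2 to 17. With a mean of at least 1 it was 3 (4147 of 13530 genes in either direction), all of the 5 genes that this filter kept. For WY vs. WO (3 genes) the number was 0 with batch 1 only (1.03% of all genes) and 0 in 1 fit of 4 groups (1.05%). It was 0 to 1 with 1 mouse left out. With a mean of at least 1 it was 0 (183 of 13530 genes in either direction). That filter had removed *Mki67*, *Top2a* and *Pbk* before the fit, so this 0 does not test their calls. For the difference of age differences (15 genes) the number was 5 with batch 1 only (12.4% of all genes) and 8 to 18 with 1 mouse left out. With a mean of at least 1 it was 7 (2802 of 13530 genes in either direction). That filter kept 6 of the 15 genes, all of them still called. Fewer mice or genes enter some of these fits; beyond that, the cause was not tested. WY vs. MY stayed at 0 under all alternatives run. The log2 ratio of summed FPKM between MO and WO was 0.20, and 0.25 as a difference in mean log2 values.

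The sources used here state no pairing of mice with the same number. The correlations of their deviations ranged from -0.207 to 0.377, which with so few mice cannot show whether there was one. With the replicate number as a block, 0 genes of the list were called in WY vs. WO, against 0.374% of all genes. In MY vs. MO 2 were called, against 20.6% of all genes in either direction and 11.3% higher. The number was 15 in WO vs. MO (22.7%, with 12.8% higher) and 0 in WY vs. MY (0.00550%). It was 11 in the difference of age differences (15.8%, with 9.70% positive). No depth behind single genes was available, and low genes such as *Bub1* and *Melk* are limited by it.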

Other observations

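In WO4, *Mbp*, the most abundant gene of the mature oligodendrocyte list, was at 5.36, against 12.16 to 14.22 in the other 15 mice, so the summed FPKM of that list was 5544 in WO4 and 24173 in WO5. Of the 10 markers of mature oligodendrocytes, 6 fell in WY vs. WO and 4 in MY vs. MO, and in WO vs. MO 2 were lower and 1 higher in MO. Endothelial markers (10, *Ly6c1* the most abundant) were lower in MO than in WO in 8 genes, with sums of 174, 160, 154, 106 and 133 FPKM in WO1 to WO5 and 86.4, 98.4, 101, 113 and 119 in MO1 to MO5. In MY vs. MO 1 of the 10 was lower. The mean sum was 104 in MO, 108 in MY, 124 in WY and 145 in WO, so WO was the highest group. Neuron markers were lower in MO in 5 of 8 genes and motor neuron markers in 4 of 6, in both WO vs. MO and MY vs. MO. Of the markers of pericytes, ependymal cells and fibroblasts, 1 of 5, 1 of 7 and 0 of 7 were higher in MO than in WO, and 2, 0 and 0 were lower.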
